A study of Mus musculus with 10 samples.

Results

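A set of 8 genes that mark macrophages was followed across normal mouse thymi of 4 genotypes: C1qb, C1qc, Fcgr3, Cd163, Tlr13, Cd68, Adgre1 and Vcam1. Each was measured by the 1 array feature that carried its symbol and no other, which gave 8 features of the 23332 in the table. The genes were picked with their values in these same samples known, and the comparison that led to the choice is not recorded. Their levels and differences are therefore given as a description. The 8 were fitted with all other features, but no p-value of them is printed and nothing is read from how many were called. Log2 signals from Affymetrix whole-transcript labelling were available for 10 thymi. The groups were mutant p53 with mdm2 null (2 thymi), p53-null with mdm2 null (2 thymi), mutant p53 with wild-type mdm2 (3 thymi) and p53-null with wild-type mdm2 (3 thymi). Mutant p53 stands for 2 copies of the allele that carries the number 246 in the labels. All mice were C57BL6/129 hybrids 4 to 5 weeks old. No sample had wild-type p53, so mdm2 loss was seen only where p53 was mutant or absent. The labels number the replicates and do not say whether they were separate animals, so p-values measure the spread between these samples.

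Macrophages of the thymus engulf the many thymocytes that die during selection, and they digest them in lysosomes. C1q, a secreted protein built of A, B and C chains, coats dying cells and immune complexes and starts the classical complement pathway. Fc receptors bind the antibody in such complexes, scavenger receptors take up haemoglobin and lipids, and Toll-like receptors inside endosomes sense microbial nucleic acid. PU.1, encoded by Spi1, is the transcription factor on which macrophage development depends. Whole thymus was measured, and fewer macrophages cannot be told apart from less RNA per macrophage.

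The 3 genes whose log2 signals ran closest together over the samples were C1qb, C1qc and Fcgr3, and Cd163 ran against C1qb. The promoters of these 4 are shown as RefSeq gives them in GRCm38.p6, from 250 bases before to 50 after the start of the gene, 5′ to 3′ on the gene's strand. Capitals mark GAGGAA, the core of the sites that PU.1 binds, or its reverse complement TTCCTC. The windows are chr4:136886151-136886450 on the minus strand for C1qb, chr4:136892865-136893164 on the minus strand for C1qc, chr1:171059354-171059653 on the minus strand for Fcgr3 and chr6:124304401-124304700 on the plus strand for Cd163.
C1qb: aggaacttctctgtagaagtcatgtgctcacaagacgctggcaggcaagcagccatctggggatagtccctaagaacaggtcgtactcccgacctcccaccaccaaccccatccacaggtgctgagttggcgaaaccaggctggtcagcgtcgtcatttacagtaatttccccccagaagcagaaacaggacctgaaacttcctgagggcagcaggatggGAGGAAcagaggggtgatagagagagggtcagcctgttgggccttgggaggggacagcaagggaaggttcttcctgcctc
C1qc: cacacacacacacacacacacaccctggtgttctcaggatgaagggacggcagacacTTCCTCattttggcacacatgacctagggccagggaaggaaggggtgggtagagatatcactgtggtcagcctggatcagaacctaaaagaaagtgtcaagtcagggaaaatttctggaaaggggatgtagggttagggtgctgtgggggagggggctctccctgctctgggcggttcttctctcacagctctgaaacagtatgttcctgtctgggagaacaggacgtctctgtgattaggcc
Fcgr3: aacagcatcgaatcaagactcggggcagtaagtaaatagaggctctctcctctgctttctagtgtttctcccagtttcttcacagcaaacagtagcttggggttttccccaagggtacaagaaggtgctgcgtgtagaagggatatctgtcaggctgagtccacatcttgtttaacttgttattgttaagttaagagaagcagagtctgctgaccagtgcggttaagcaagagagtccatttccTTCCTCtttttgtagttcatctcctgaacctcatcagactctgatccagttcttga
Cd163: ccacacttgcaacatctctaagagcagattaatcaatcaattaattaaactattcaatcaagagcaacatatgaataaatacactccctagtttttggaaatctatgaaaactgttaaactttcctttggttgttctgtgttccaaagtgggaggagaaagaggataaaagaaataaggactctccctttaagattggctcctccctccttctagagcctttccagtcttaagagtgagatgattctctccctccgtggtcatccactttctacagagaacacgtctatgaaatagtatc

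The marked letters began 30 bases before the start in C1qb, 193 before in C1qc and 6 before in Fcgr3, and the Cd163 window held none. Searched on both strands, GAGGAA was in 5 of the 6 windows found for the 8 genes, those of Tlr13 and Cd68 included, against 28.3% of 32851 promoter windows. TATAAA was in 0 of 6 against 13.6%, and the AP-1 motif TGANTCA was in 1 of 6, that of Cd68, against 7.81%. A match describes these letters only and says nothing of binding. In RefSeq's gene order C1qb, C1qc and C1qa lie next to each other.

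The labels were first checked against the signals. Mdm2 was between 8.28 and 8.43 in the 4 mdm2-null thymi and between 9.47 and 9.62 in the 6 with wild-type mdm2. Thymocyte genes were high, with group means from 12.56 to 12.77 for Cd8a, which encodes a chain of the CD8 coreceptor, and correlations between samples over all features lay between 0.967 and 0.991. By the prefix of their array names the samples formed 3 sets, of which 0 held both mdm2 genotypes, so mdm2 genotype and array set cannot be told apart. That holds as well for p53 genotype without mdm2, whereas both groups with wild-type mdm2 shared 1 set. What the prefix stands for is not given, so these array sets may or may not be batches. Liver transcripts set the mdm2-null thymi apart: Alb, which encodes serum albumin, averaged 11.14 without mdm2 and 4.13 with it. Over both p53 genotypes all 12 measured hepatocyte genes were called higher without mdm2, where 1.96% of all features were. Within mutant p53 and within p53-null thymi 1 of the 12 was called each time. The Y-linked genes Kdm5d and Eif2s3y were at 3.73 and 3.46 in replicate 1 of the p53-null, mdm2 wild-type group, and at 7.27 or more and 9.72 or more in all other samples.

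C1qb, which encodes the B chain of C1q, had log2 signals of 9.91 and 9.47 in mutant p53, mdm2-null thymi and 9.89 and 9.74 in p53-null, mdm2-null thymi, against 10.21, 10.29 and 9.93 in mutant p53, mdm2 wild-type thymi and 10.20, 10.45 and 10.29 in p53-null, mdm2 wild-type thymi. Every mdm2-null thymus was below every thymus with wild-type mdm2, which held for 4.52% of all features. The mean was 9.75 ± 0.20 (SD, n = 4) without mdm2 and 10.23 ± 0.17 (SD, n = 6) with it, a log2 difference of -0.48 (SE 0.11). C1qb was the 1 gene of the 8 called, at an adjusted p under 0.05 by limma, for mdm2 loss over both p53 genotypes, where 3.87% of all features were called, 1.90% as lower. As that contrast may have entered the choice of the genes, nothing is read from the call. Without mutant p53, mdm2-null replicate 1 the number of the 8 genes called was 2, and without any other single thymus it was 0.

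C1qc encodes the C chain. Its signals were 9.51 and 9.02 in mutant p53, mdm2-null thymi and 9.19 and 9.15 in p53-null, mdm2-null thymi, against 9.22, 9.34 and 9.22 in mutant p53, mdm2 wild-type thymi and 9.59, 9.73 and 9.43 in p53-null, mdm2 wild-type thymi. In p53-null thymi the mdm2 genotypes did not overlap, and 13.8% of all features lay apart as lower there. In mutant p53 thymi the mdm2-null pair lay on both sides of the others. The difference with mdm2 loss was 0.01 (SE 0.16) in mutant p53 thymi and -0.41 (SE 0.16) in p53-null thymi. For C1qb it was -0.45 (SE 0.17) and -0.50 (SE 0.17), and the 2 genes were not tested against each other. With 1 thymus left out, the C1qc difference in mutant p53 thymi ranged from -0.24 to 0.25. With wild-type mdm2, all mutant p53 thymi were below all p53-null thymi, as for 3.99% of all features, by -0.32 (SE 0.14) on average. For C1qa, the gene of the A chain and not among the 8, the signals were 10.53 and 10.07 and then 10.36 and 10.11 without mdm2, in mutant p53 and in p53-null thymi, against 10.31, 10.55 and 10.17 and then 10.49, 10.77 and 10.37 with it. Its difference with mdm2 loss was -0.04 (adjusted p = 0.952) in mutant p53 and -0.31 (adjusted p = 0.619) in p53-null thymi, neither of which passed by limma.

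Fcgr3, the gene of the low-affinity IgG receptor CD16, showed the widest spread among the 8 genes. It was 6.14 and 5.20 in mutant p53, mdm2-null thymi and 6.25 and 5.71 in p53-null, mdm2-null thymi, against 6.17, 5.94 and 5.84 in mutant p53, mdm2 wild-type thymi and 6.69, 6.79 and 6.75 in p53-null, mdm2 wild-type thymi. The 3 p53-null thymi with wild-type mdm2 were close to each other and above all 7 other samples. The share of all features with that pattern was not counted, and nothing is read from it. With wild-type mdm2, 3.99% of all features had every mutant p53 thymus below every p53-null thymus. In p53-null thymi, 13.8% had both mdm2-null thymi below all those with mdm2. Group means were 5.67 ± 0.67 (SD, n = 2), 5.98 ± 0.38 (SD, n = 2), 5.98 ± 0.17 (SD, n = 3) and 6.74 ± 0.05 (SD, n = 3) in the same order. The 2 mdm2-null pairs and the mutant p53 group with wild-type mdm2 thus did not differ beyond their spread. Loss of mdm2 in p53-null thymi went with a difference of -0.77 (SE 0.27), a 1.70-fold lower signal, and mutant p53 against p53-null with wild-type mdm2 gave -0.76 (SE 0.24). These contrasts share the 3 high samples. A second feature, annotated to both Fcgr2b and Fcgr3 and not counted among the 8, was 6.09 and 5.52 and then 5.995 and 5.39 without mdm2, in mutant p53 and in p53-null thymi, against 5.80, 5.78 and 5.87 and then 6.43, 6.73 and 6.05 with it. There too 2 of the 3 p53-null thymi with wild-type mdm2 exceeded every other sample, but the third was below the highest mutant p53, mdm2-null signal. Fcgr2b encodes the inhibitory IgG receptor, which resembles CD16 outside the cell.

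Cd163, the gene of the haemoglobin-haptoglobin scavenger receptor, was near the lower quartile of all features, which lay between 4.30 and 4.45 in the samples. Signals were 4.47 and 5.04 in mutant p53, mdm2-null thymi and 4.39 and 4.62 in p53-null, mdm2-null thymi, against 4.14, 3.94 and 4.23 in mutant p53, mdm2 wild-type thymi and 4.79, 4.63 and 4.12 in p53-null, mdm2 wild-type thymi. Mutant p53 thymi without mdm2 exceeded those with it, as for 16.4% of all features, by 0.65 (SE 0.23). In p53-null thymi the mdm2 genotypes overlapped, with a difference of -0.00 (SE 0.23). The difference in mutant p53 thymi was 0.94 without mutant p53, mdm2-null replicate 1 and 0.37 without replicate 2 of that group. Cd163 is also a gene of the resident macrophages of the liver. Their marker Clec4f was 4.27 and 4.30 and then 3.99 and 4.35 in the mdm2-null thymi, of mutant p53 and of p53-null mice, against 4.11 to 4.23 and 4.07 to 4.49 with mdm2. Its difference over both p53 genotypes was 0.03 (adjusted p = 0.92, limma). Clec4f too was near the lower quartile of all features in every group, and nothing is read from its difference. Of the 11 measured genes on the list of these liver macrophages, which holds Cd163 and Adgre1 too, 9 were above 0 with mdm2 loss in mutant p53 thymi (median 0.41), 5 in p53-null thymi (median -0.00) and 9 over both (median 0.15), and 0 were called. The mean of that list relative to all samples was 0.08 and 0.21 in mutant p53, mdm2-null thymi and 0.06 and -0.05 in p53-null, mdm2-null thymi, against -0.20 to -0.12 in mutant p53 and 0.01 to 0.16 in p53-null thymi with wild-type mdm2. The mean of the hepatocyte list relative to its level over all samples was 1.64 and 2.99 in the mutant p53 mdm2-null pair and 0.53 and 3.41 in the p53-null pair, against -1.59 to -1.21 with wild-type mdm2. Within each mdm2-null pair Cd163 was higher in the replicate with more hepatocyte signal. In both pairs Fcgr3, C1qb, C1qc, Cd68 and Adgre1 were lower in that replicate, and Tlr13 and Vcam1 differed in direction between the pairs. The part of liver RNA or liver macrophages in the levels of these genes was not tested.

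Tlr13, the gene of the endosomal receptor for bacterial ribosomal RNA, was 5.59 and 5.50 in mutant p53, mdm2-null thymi and 5.48 and 5.81 in p53-null, mdm2-null thymi, against 5.13, 5.33 and 5.49 in mutant p53, mdm2 wild-type thymi and 6.19, 5.96 and 5.68 in p53-null, mdm2 wild-type thymi. Within wild-type mdm2 the p53 genotypes did not overlap, where 3.99% of all features lay apart with mutant p53 lower. The difference of mutant p53 from p53-null was -0.10 (SE 0.20) without mdm2 and -0.63 (SE 0.16) with wild-type mdm2. Loss of mdm2 gave 0.22 (SE 0.18) in mutant p53 thymi and -0.30 (SE 0.18) in p53-null thymi, where the groups overlapped. In mutant p53 thymi the groups lay apart by a small gap, and 16.4% of all features lay apart as higher. The highest Tlr13 signal came from p53-null, mdm2 wild-type replicate 1, the thymus with low Kdm5d and Eif2s3y. Tlr13 is X-linked, and the part of sex in its level was not tested.

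Cd68, the gene of a lysosomal membrane glycoprotein, varied least by genotype together with Vcam1. Cd68 was 10.08 and 10.07 in mutant p53, mdm2-null thymi and 10.17 and 9.93 in p53-null, mdm2-null thymi, against 9.94, 10.08 and 9.67 in mutant p53, mdm2 wild-type thymi and 10.14, 10.31 and 10.09 in p53-null, mdm2 wild-type thymi. The mdm2 genotypes overlapped within each p53 genotype, with differences of 0.18 (SE 0.15) in mutant p53 and -0.13 (SE 0.15) in p53-null thymi. With wild-type mdm2 the mutant p53 thymi were all below the p53-null thymi, by -0.28 (SE 0.13), although 10.08 and 10.09 nearly met. That order held for 3.99% of all features.

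Adgre1 encodes the adhesion receptor recognised by the F4/80 antibody, a standard marker of mouse macrophages. It was 7.93 and 7.58 in mutant p53, mdm2-null thymi and 7.51 and 7.39 in p53-null, mdm2-null thymi, against 7.44, 7.41 and 7.20 in mutant p53, mdm2 wild-type thymi and 7.50, 8.02 and 7.58 in p53-null, mdm2 wild-type thymi. Both mutant p53 thymi without mdm2 were above all 3 with it, as for 16.4% of all features, by 0.41 (SE 0.18). The p53-null thymi overlapped, at -0.25 (SE 0.18). The p53 contrast therefore had opposite signs in the 2 mdm2 backgrounds. Mutant p53 minus p53-null was 0.31 (SE 0.20) without mdm2 and -0.35 (SE 0.16) with it, and the groups lay apart both times. Without mdm2 the p53 genotypes also differed in array name prefix. Of all features 12.9% lay apart as higher without mdm2 and 3.99% as lower with it.

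Vcam1 encodes an adhesion molecule for integrins that macrophages share with endothelium and stroma. Its signals were 8.19 and 8.37 in mutant p53, mdm2-null thymi and 8.61 and 8.44 in p53-null, mdm2-null thymi, against 8.26, 8.35 and 8.39 in mutant p53, mdm2 wild-type thymi and 8.35, 8.52 and 8.37 in p53-null, mdm2 wild-type thymi. The groups with wild-type mdm2 overlapped, and so did the mdm2 genotypes within each p53 genotype. Only the mdm2-null groups lay apart, with mutant p53 lower by -0.25 (SE 0.13), and 14.8% of all features lay apart in that way. Endothelial and pericyte genes, read as the mean of 14 genes relative to all samples, were at 0.18 and 0.08 and then 0.16 and -0.22 in the mdm2-null pairs of mutant p53 and of p53-null thymi, against -0.13 to 0.03 with wild-type mdm2.

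**Figure D1:**
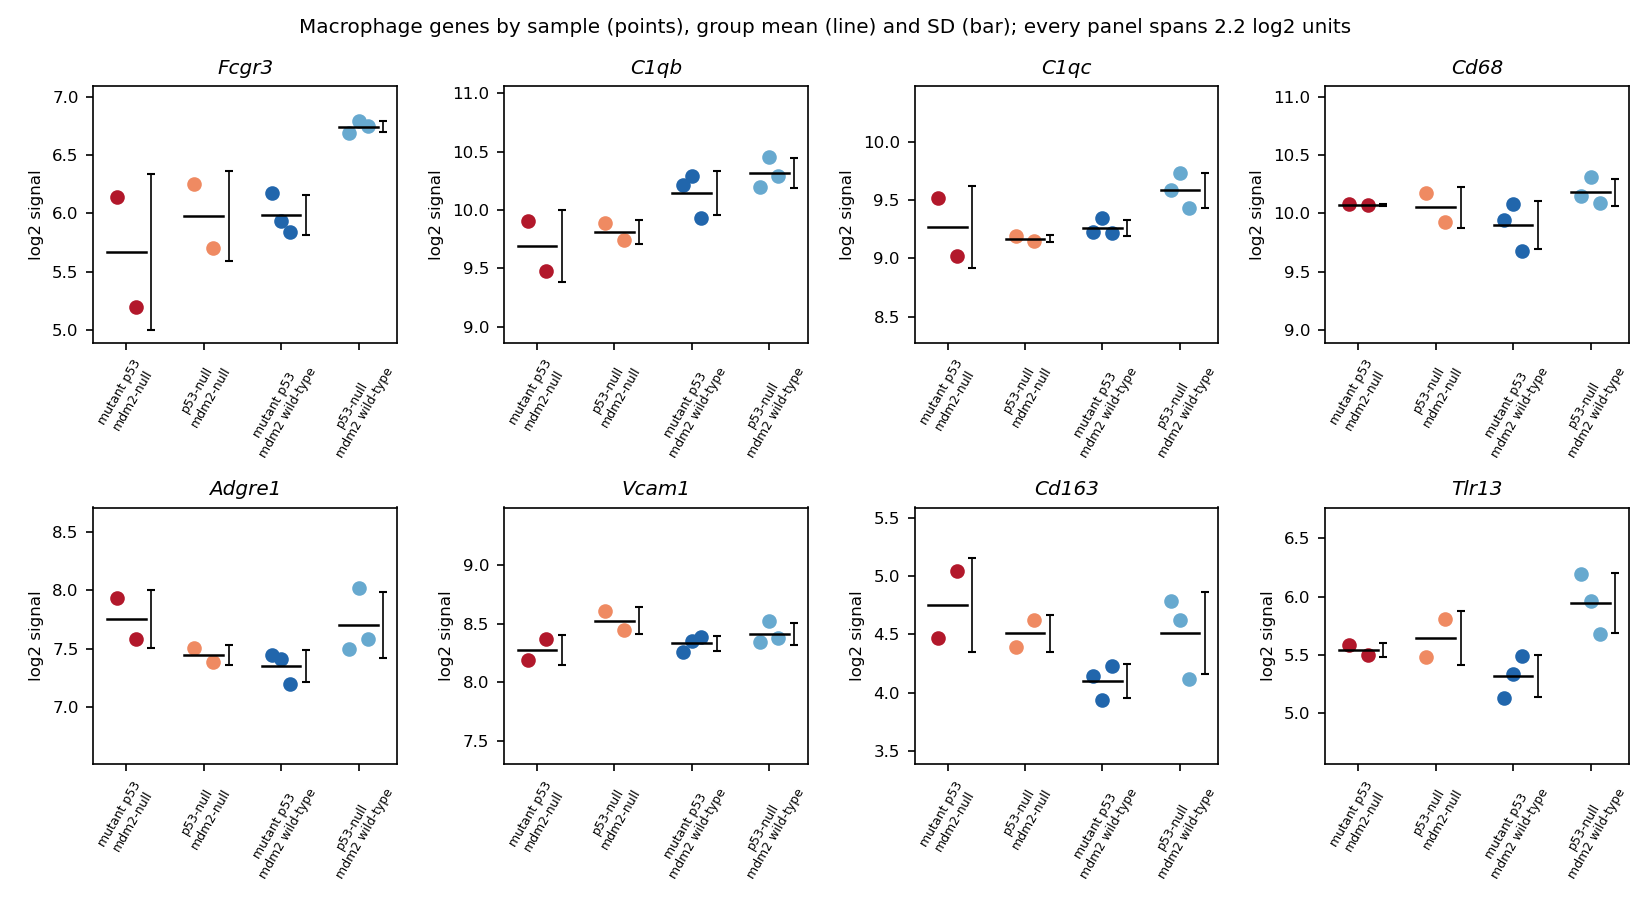
Log2 signal (y axis) of each of the 8 genes in the 4 genotype groups (x axis), with 1 point per thymus, a line at the group mean and a bar for the SD. All panels span the same log2 range. For Fcgr3 the 3 p53-null thymi with wild-type mdm2 stand at 6.69 to 6.79, above the other 7 samples. The share of all features with that pattern was not counted.

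Mutant p53 was set against p53-null with wild-type mdm2, the p53 comparison whose samples shared 1 array name prefix, of unknown meaning. All 8 genes were lower with mutant p53, from -0.08 (SE 0.11) for Vcam1 to -0.76 (SE 0.24) for Fcgr3, with a median of -0.34. Among all features 49.3% were lower and the median was 0.00. The groups did not overlap for 5 of the 8 (Fcgr3, C1qc, Cd68, Adgre1 and Tlr13), where 3.99% of all features lay apart in that direction. The genes were chosen on these samples, and nothing is read from these counts. Their sign held in each alternative that gave them a value. The median moved most without p53-null, mdm2 wild-type replicate 2, to -0.23. By limma none of the 23332 features passed an adjusted p under 0.05 in this contrast, and 2.96% had an unadjusted p under 0.05.

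The wider set of macrophage genes, 167 measured genes in 10 lists by role, was lower with mutant p53 in 142 cases (85.0%), with a median of -0.17. None of the 167 was called. At an unadjusted p under 0.05 there were 16 (9.58%), and 26 (15.6%) lay apart as lower and 3 (1.80%) as higher, where 3.99% and 3.68% of all features did. These lists were also drawn up with earlier results known. The share of genes that were lower was smallest, at 72.5%, without p53-null, mdm2 wild-type replicate 2. In that thymus the 8 genes averaged 0.35 above their level over all samples, and fibroblast genes 0.48.

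By role, all 14 scavenger and lectin receptors were lower with mutant p53 (median -0.22), as were 19 of 20 Toll-like receptor genes (median -0.20), 9 of 10 Fc receptor genes (median -0.36), 9 of 10 complement genes (median -0.19) and 21 of 23 lysosomal genes (median -0.12). None of these genes passed the adjusted threshold. The single genes that follow do not stand for their lists. Tlr8, Fcgr4, Fcer1g, Msr1, Gpnmb and Asah1 were named by small p for mdm2 loss in p53-null thymi. That contrast shares its p53-null, mdm2 wild-type samples with this one. Tlr8, Fcgr4 and Gpnmb had the lowest difference of their lists here, and so had Mertk in the efferocytosis list, whose median was -0.08. The lower quartile of all features lay between 4.30 and 4.45. Near it were the group means of Fcgr4, 4.11 with mutant p53 and 4.63 in p53-null thymi, and of Msr1, 4.06 and 4.53. Tlr8 was near it in mutant p53 thymi. Mertk, the receptor kinase through which macrophages recognise dying cells, was 6.27, 5.81 and 5.87 in mutant p53 thymi, against 6.65, 6.94 and 6.38 in p53-null thymi. The groups did not overlap, and the difference was -0.67 (SE 0.20, adjusted p = 1, limma). Tlr8, an endosomal receptor gene, was 4.50, 4.20 and 4.52 in mutant p53 thymi, against 4.78, 5.23 and 4.85 in p53-null thymi, also without overlap, at -0.55 (SE 0.15, adjusted p = 1). Fcgr4, the gene of another activating IgG receptor, differed by -0.52 (SE 0.17), Fcer1g, which encodes the signalling chain that CD16 needs, by -0.47 (SE 0.22), and the class A scavenger receptor gene Msr1 by -0.47 (SE 0.17), each with adjusted p = 1. Of the lysosomal genes, Gpnmb differed by -1.13 (SE 0.46) and the ceramidase gene Asah1 by -0.54 (SE 0.18), again with adjusted p = 1.

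In the other lists, other macrophage markers (oxidase subunits, chemokines and surface proteins among them) were lower in 29 of 33 cases with a median of -0.25. Efferocytosis genes were lower in 15 of 19 cases with a median of -0.08, heme and iron genes in 7 of 12 (median -0.05), and ligands of VCAM1 with other leukocyte adhesion genes in 4 of 10 (median 0.02). Macrophage growth factor and transcription factor genes were lower in 15 of 16 cases (median -0.14). Among them Spi1 was -0.23 (SE 0.22) and Csf1r, which encodes the receptor for macrophage colony-stimulating factor, -0.26 (SE 0.23), both with adjusted p = 1 by limma.

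**Figure D2:**
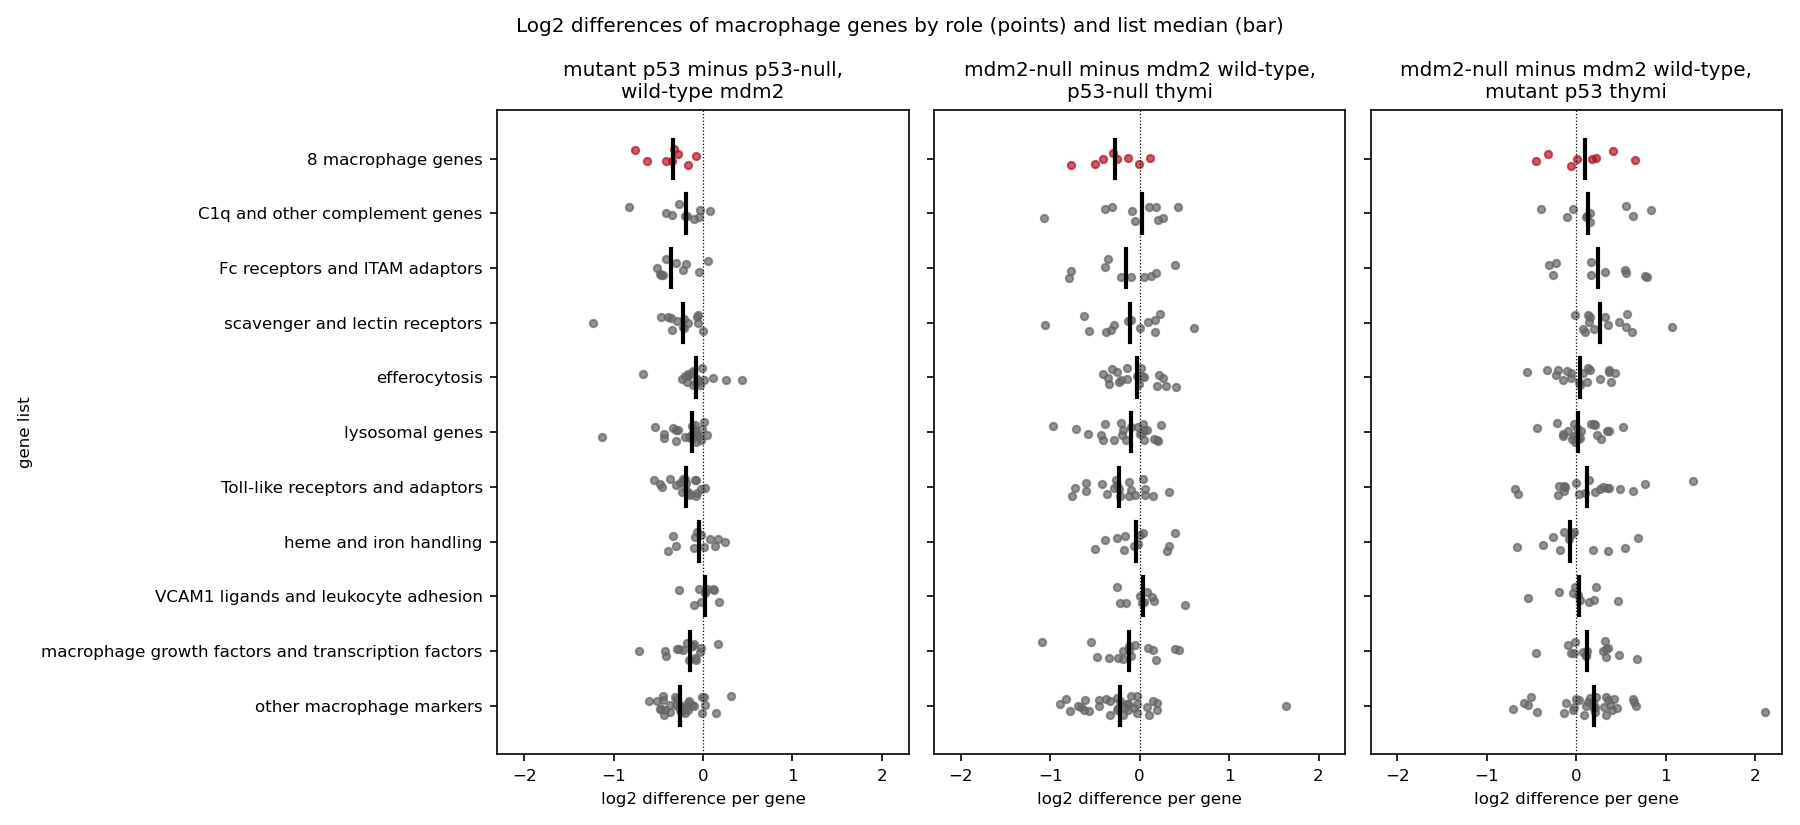
Log2 difference of each measured gene (points, x axis) in the 8 genes and the 10 macrophage lists (y axis), with a bar at the list median, for 3 comparisons. With wild-type mdm2 the medians for mutant p53 minus p53-null lie at -0.05 or lower except for the VCAM1 ligand list at 0.02, and the contrasts of the left and middle panels share the p53-null, mdm2 wild-type samples.

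Genes of other cell types gave these values in the same contrast. Dendritic cell genes were lower with mutant p53 in 11 of 16 cases (median -0.07), monocyte and granulocyte genes in 8 of 16 (median 0.02) and fibroblast genes in 6 of 10 (median -0.11). B cell genes were lower in 3 of 10 (median 0.13), endothelial genes in 6 of 14 (median 0.03) and thymocyte genes in 4 of 12 (median 0.01). The lowest medians were those of adipocyte genes, lower in 9 of 11 cases (median -0.20), and of the liver macrophage list, lower in 9 of 11 (median -0.17). None of the genes on these lists was called. The mean adipocyte level relative to all samples was -0.68 to -0.44 in mutant p53 thymi, against 0.38, -0.52 and -0.68 in p53-null thymi, where replicate 1 stood apart. The mean dendritic cell level relative to all samples was -0.11 to 0.10 in mutant p53 and -0.19 to 0.29 in p53-null thymi, so it overlapped. The mean of the 8 genes, which were picked with these values known, was -0.20 to -0.11 in mutant p53 and 0.09 to 0.35 in p53-null thymi. Among the wider lists, other macrophage markers overlapped too, at -0.20 to 0.00 and -0.01 to 0.30. So did the Toll-like receptor, growth factor, efferocytosis, heme and VCAM1 ligand lists. The Fc receptor, scavenger and lysosomal lists lay apart, and the complement list by a small gap. The part of dendritic cells or fat in the signals was not tested.

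**Figure D3:**
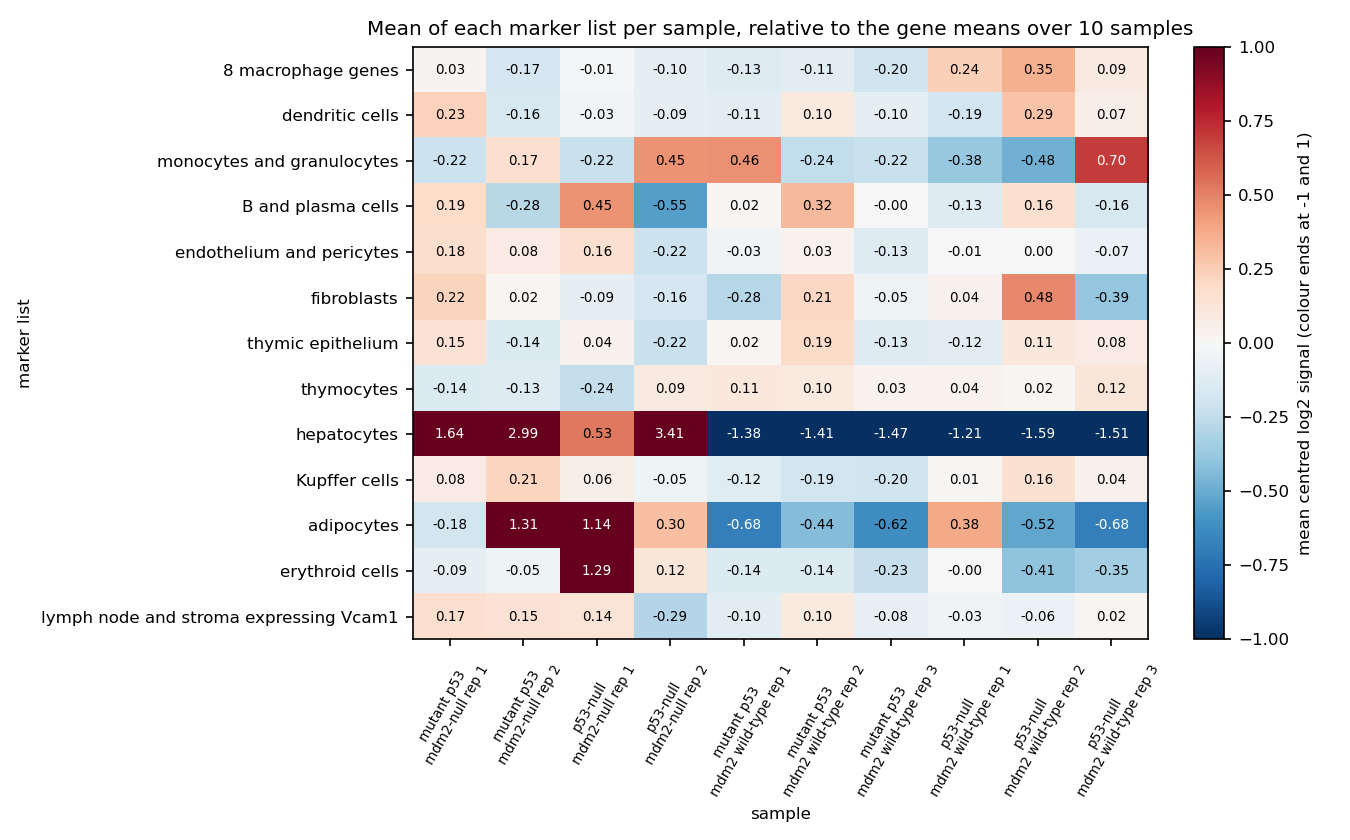
Mean of the 8 genes and of each cell type list (rows) in each thymus (columns) as log2 signal relative to the genes' means over 10 samples, with colours ending at -1 and 1. The 8 genes are positive in all 3 p53-null, mdm2 wild-type thymi (0.24, 0.35 and 0.09), and the hepatocyte row is positive in the 4 mdm2-null thymi and negative in the other 6.

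Without mdm2 the p53 comparison did not repeat that picture. There the p53 genotypes also differed in array name prefix, so p53 genotype and array set cannot be told apart. That limit carries over to the difference between the 2 p53 contrasts. Without mdm2, mutant p53 minus p53-null was above 0 for 4 of the 8 genes, where 48.8% of all features were, with a median of -0.04. Adgre1 lay apart as higher, where 12.9% of all features did, and Vcam1 as lower, where 14.8% did. Of the 167 other macrophage genes 107 (64.1%) were above 0, with a median of 0.07, and none was called. The difference between the 2 p53 contrasts, without mdm2 minus with it, was above 0 for 7 of the 8 genes against 48.8% of all features, with a median of 0.44, and reached 0.66 (SE 0.26) for Adgre1. It was above 0 for 133 of the 167 other genes (79.6%) and for all 20 Toll-like receptor genes, with medians of 0.24 and 0.31. No feature was called for this difference by limma. At an unadjusted p under 0.05 there were 4.27% of all features and 18 (10.8%) of the 167. Each arm without mdm2 held 2 thymi. Without mutant p53, mdm2-null replicate 1 the median of the 8 genes was -0.15 for the contrast without mdm2 and 0.24 for the difference. The 8 genes averaged 0.03 in that thymus and -0.17 in the other one of its group.

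Loss of mdm2 was compared within each p53 genotype. In p53-null thymi 7 of the 8 genes were lower without mdm2, where 52.9% of all features were, and the median was -0.28. Fcgr3, C1qb and C1qc lay apart as lower, where 13.8% of all features did. This contrast shares its p53-null, mdm2 wild-type samples with the p53 contrast described above. In mutant p53 thymi 5 of the 8 were higher without mdm2, where 47.4% of all features were, and the median was 0.09. Adgre1, Cd163 and Tlr13 lay apart as higher, where 16.4% of all features did, and C1qb as lower, where 19.7% did. The median was 0.22 without mutant p53, mdm2-null replicate 2. The differences in mutant p53 thymi without replicate 1 and without replicate 2 of the mdm2-null pair were -0.79 and 0.16 for Fcgr3, -0.67 and -0.24 for C1qb, and -0.24 and 0.25 for C1qc. Replicate 2 had the lowest Fcgr3, C1qb and C1qc signals and the highest Cd163 signal of all 10. Neither contrast called any of the 8 genes, where 0.0129% of features in mutant p53 and 0.0214% in p53-null thymi were called.

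Of the 167 other macrophage genes, 109 (65.3%) were higher without mdm2 in mutant p53 thymi (median 0.12), and 108 (64.7%) were lower without mdm2 in p53-null thymi (median -0.12). No gene of the 167 was called in either, while 35 (21.0%) in mutant p53 and 26 (15.6%) in p53-null thymi had an unadjusted p under 0.05, where 16.4% and 10.7% of all features did. Fcer1g, Tlr7 and Hmox1 were named by small p for mdm2 loss in p53-null thymi and do not stand for their lists. In mutant p53 thymi Fc receptor genes were higher without mdm2 in 7 of 10 cases (median 0.24). Toll-like receptor genes were higher there in 13 of 20 (median 0.12), and heme and iron genes in 4 of 12 (median -0.07). The lowest differences of the Fc receptor and Toll-like receptor lists there were -0.31 and -0.69. Fcer1g was -0.31 (SE 0.25, adjusted p = 0.594, limma) in mutant p53 thymi and -0.77 (SE 0.25, adjusted p = 0.332) in p53-null thymi. Tlr7, an endosomal receptor for RNA, was -0.69 (SE 0.32, adjusted p = 0.329) in mutant p53 thymi and -0.73 (SE 0.32, adjusted p = 0.462) in p53-null thymi. Hmox1, the gene of the enzyme that breaks down heme, was -0.37 (SE 0.16, adjusted p = 0.296) in mutant p53 and 0.40 (SE 0.16, adjusted p = 0.428) in p53-null thymi, and the difference between those values had an adjusted p of 0.995.

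Over both p53 genotypes, 4 of the 167 genes (2.40%) were called for mdm2 loss, against 3.87% of all features. Arg1, the arginase of macrophages and of the liver's urea cycle, was 6.76 and 6.98 and then 5.40 and 7.60 in mdm2-null thymi of mutant p53 and of p53-null mice, against 4.64 to 4.88 and 4.78 to 4.91 with mdm2. The log2 rise was 1.87 (SE 0.34, adjusted p = 0.0269, limma). Cebpa, a transcription factor gene of myeloid cells, liver and fat, rose by 0.56 (SE 0.10, adjusted p = 0.0271). Hpgds, which encodes a prostaglandin D synthase, fell by 0.68 (SE 0.13, adjusted p = 0.0295), and Tfrc, the transferrin receptor gene, which dividing thymocytes also express, fell by 0.58 (SE 0.13, adjusted p = 0.04). In these 4 genes the mdm2 genotypes did not overlap. Hepatocyte and adipocyte lists moved with the same contrast, the 12 measured hepatocyte genes all called and all 11 adipocyte genes above 0 with 3 called, and the part of liver or fat RNA in the Arg1 and Cebpa values was not tested. The count of 4 was 8 without p53-null, mdm2-null replicate 1 and 2 without mutant p53, mdm2-null replicate 1. Leaving out mutant p53, mdm2 wild-type replicate 3 gave 1, as did leaving out replicate 2 of the p53-null group with wild-type mdm2. It was 0 without replicate 2 of mutant p53, mdm2-null, replicate 1 of mutant p53 with wild-type mdm2 or replicate 3 of p53-null with wild-type mdm2.

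How the 8 genes varied together was described by Pearson's r over the 10 thymi, which share genotype groups and array sets. Of the 28 pairs 23 had r above 0, and the median was 0.32. Fcgr3 had r of 0.83 with C1qb (rho 0.75) and 0.84 with C1qc (rho 0.78), and C1qb had 0.76 with C1qc (rho 0.77). Leaving out the 2 samples farthest from the median of the first gene gave 0.60, 0.69 and 0.47. As deviations from the group means, which remove genotype, the same pairs had 0.80, 0.72 and 0.79. On that scale Adgre1 had 0.87 with C1qb, the highest of all pairs, and 0.75 with C1qc, and Cd68 had 0.71 with C1qb. Those 3 pairs had 0.25, 0.65 and 0.35 from the log2 signals, and -0.01, 0.52 and 0.29 without the 2 farthest samples. As deviations, Cd163 had -0.62 with Fcgr3 and -0.62 with C1qb. In a group of 2 thymi the deviations mirror each other. From the log2 signals, Cd68 and Adgre1 had 0.75 (rho 0.71), which was 0.30 without the 2 farthest samples. Cd163 had -0.54 with C1qb (rho -0.47) and 0.56 with Tlr13 (rho 0.62). Vcam1 had values from -0.07 to 0.31 with the other 7 genes.

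**Figure D4:**
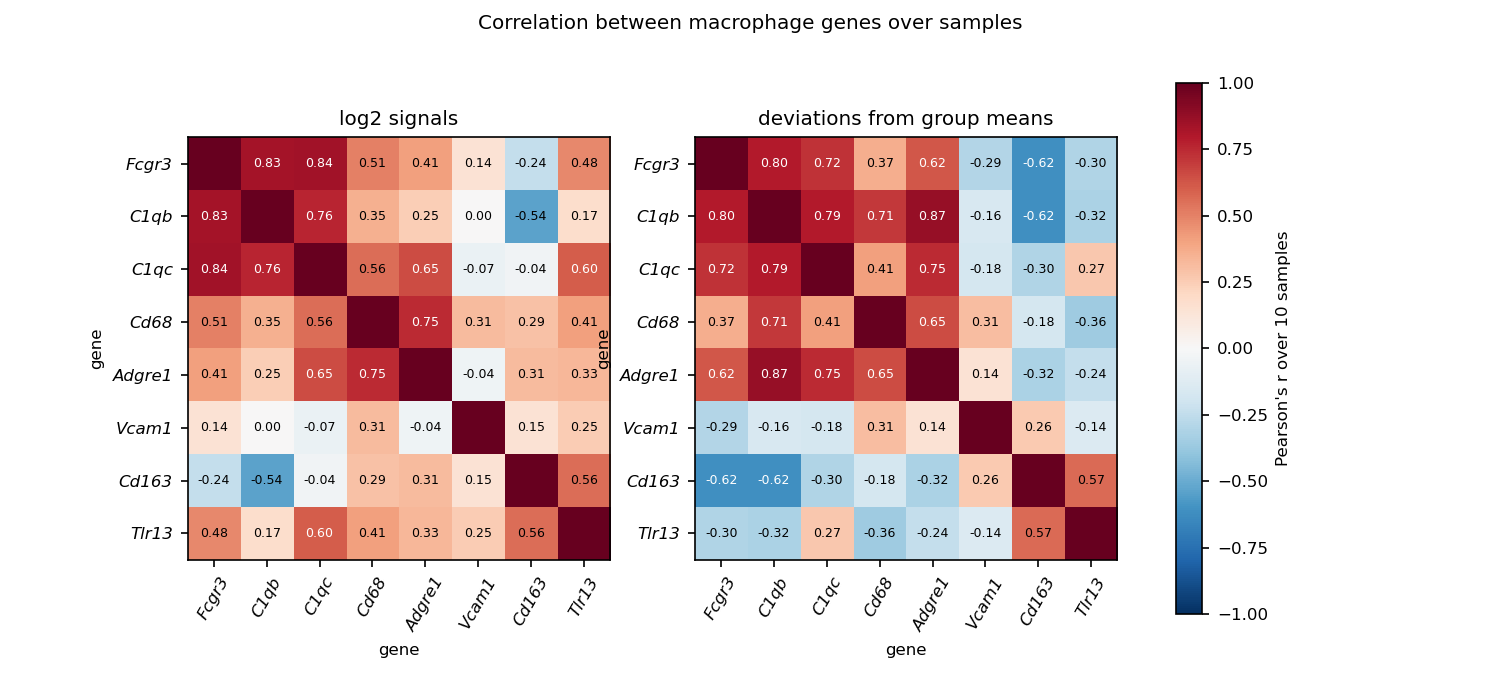
Pearson's r between the 8 genes over 10 thymi (rows and columns are genes), from log2 signals on the left and from deviations from the group means on the right. The pairs of C1qb, C1qc and Fcgr3 have 0.76 to 0.84 on the left and 0.72 to 0.80 on the right. Adgre1 has 0.87 with C1qb and 0.75 with C1qc on the right, against 0.25 and 0.65 on the left.

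The 10 genes most like the mean of the 8, by Pearson's r over 10 thymi among features with 1 symbol, had r from 0.87 to 0.95. In order they were Cd209a, Cd244a, Mertk, Itgae, Mgl2, Sgsh, Serpinb5, Eri2, Entpd1 and Hacd4, and each reached its highest signal in a p53-null, mdm2 wild-type thymus. Cd209a, a C-type lectin gene of dendritic cells and macrophages, was 5.73 to 6.17 in mutant p53, mdm2-null and 5.49 to 5.65 in p53-null, mdm2-null thymi, against 5.39 to 5.52 in mutant p53 and 5.95 to 7.15 in p53-null thymi with wild-type mdm2. Cd244a, the gene of a receptor best known from natural killer cells, was 4.47 to 4.92 and 4.66 to 4.87 in the mdm2-null groups, against 4.53 to 4.97 in mutant p53 and 5.21 to 5.73 in p53-null thymi with wild-type mdm2. Itgae encodes the integrin chain CD103, and Mgl2 a galactose-binding lectin of macrophages and dendritic cells. These genes were found by their likeness in the same 10 samples, so their r values are a ranking and not a result.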

How the data were processed

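The deposited table holds log2 signals that the authors had processed, and its range is that of a log2 scale. Per the submitters' processing notes Partek 6.5 and genome build mm8 were used. Normalization, probe summary and detection calls are not given in the sources used here. Per the labels' protocols, ribosomal RNA was reduced before amplification. Values were used as deposited. The platform annotation gave 1 symbol to 14996 of 23332 features, several to 1019 and none to 7317.

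A linear model was fitted to all 23332 features by limma's lmFit and eBayes (version 3.58.1, R 4.3.3). Two-sided p-values were adjusted by Benjamini-Hochberg over all features in each of 6 comparisons, and called under 0.05. Comparisons of 2 groups came from 1 mean per group over all 10 samples. Loss of mdm2 over both p53 genotypes came from an additive model. The number of arrays limits the precision. A list was described by counts and its median. The fits were tested on simulated data.

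Members and lists were chosen with earlier results of these data known. Besides the 8 genes, the naming rule took from each role list all called genes and, by smallest p for mdm2 loss in p53-null thymi, others up to 4. It also took the 2 brightest genes per cell type and the 10 genes most like the mean of the 8. Mdm2, C1qa, Clec4f, Spi1, Csf1r, Spic, Timd4, Kdm5d and Eif2s3y were named outside this rule, after their values were seen. Mertk, which the rule took by likeness, was also added after its values were seen. For genes with more than 1 feature the brightest was used. Of the 8 genes, 6 had a promoter entry in RefSeq. Alternatives were other normalizations, filters on dim features, other fits and single samples left out.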

Additional observations from a re-analysis of the deposited data

Results flagged for a closer look

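Adgre1 drew attention because its p53 contrast pointed opposite ways in the mdm2 backgrounds, with every sample on its side: both mutant p53 thymi were above both p53-null thymi without mdm2, and all 3 mutant p53 thymi were below all 3 p53-null thymi with wild-type mdm2. Of all features 12.9% lay apart as higher without mdm2 and 3.99% as lower with it. The share that did both was not counted. The gap between the 2 p53 contrasts of Adgre1, without mdm2 minus with it, was 0.66 on the log2 scale (SE 0.26). Without mdm2, p53 genotype and array set cannot be told apart, and this gap shares that limit. The limma fit over all features called 0 features for this difference, Adgre1 included, and as the gene was chosen on these samples no p-value is given. No signal of the 8 genes stood far from the others of its mdm2 genotype by Dixon's criterion, which was applied to 16 sets of samples, each gene in the 4 mdm2-null and in the 6 mdm2 wild-type thymi.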

How the results depend on the processing

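Alternatives for the 8 genes gave 782 values, of which 758 stayed within 1 SD of the main value and 24 moved further, all of these for Fcgr3, C1qb, C1qc or Cd163 when a mutant p53, mdm2-null thymus was left out. The sign changed in 29, of which 3 had a main difference over 0.3 in size. For mdm2 loss over both p53 genotypes, the number of the 8 genes called was 0 with median centring and with the plain linear model, and 0 to 2 with 1 sample left out. The number of other macrophage genes called there was 9 without the dimmer 50% of features, 2 with the plain linear model and 0 to 8 with 1 sample left out, and features called were 453 with the plain model and 114 to 776 with 1 sample left out. For mdm2 loss in p53-null thymi, features called were 13 without the dimmer 50%, 0 in a fit to the 2 groups alone (5 in the fit to all samples) and 3 to 62 with 1 sample left out, and other macrophage genes called 0 to 1. For mdm2 loss in mutant p53 thymi, features called, 3 in the main setting, were 7 with quantile normalization, 11 without the dimmer 25%, 143 without the dimmer 50%, 8 in a fit to the 2 groups alone and 0 to 63 with 1 sample left out. Other macrophage genes called were 1 in the fit to the 2 groups, 1 without the dimmer 50%, and 0 to 1 with 1 sample left out. For mutant p53 against p53-null with wild-type mdm2, features called were 1 in the fit to the 2 groups and 0 to 1 with 1 sample left out. They were 0 to 5 for that contrast without mdm2 and 0 to 2 for the difference of the p53 effect.

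With 1 sample left out, the median of the 8 genes ranged from -0.37 to -0.19 for mdm2 loss in p53-null thymi, 0.025 to 0.218 in mutant p53 thymi, -0.40 to -0.23 for mutant p53 with wild-type mdm2, -0.15 to 0.062 without mdm2 and 0.24 to 0.47 for the difference of the p53 effect, where it was 0.31 without the dimmer 50% of features. That filter removed Fcgr3, Cd163 and Tlr13 and kept 5 of the 8 genes. The percent of other macrophage genes below 0, a summary added after the data were seen, ranged from 25.1 to 54.5 for mutant p53 without mdm2 and from 16.2 to 32.9 for the difference. The causes were not tested.

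Replicate numbers did not pair the samples: deviations from group means had r from -0.19 to 0.19 in 13 same-numbered pairs. With the replicate number as a block, mdm2 loss over both p53 genotypes called 61 features, 0 of the other macrophage genes and 0 of the 8 genes, and mdm2 loss in mutant p53 thymi called 5 features.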

Other observations

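Further genes of resident tissue macrophages, not described above, had these values, none of which passed the test. Spic, the transcription factor gene of red pulp macrophages of the spleen, differed with mdm2 loss by -0.26 (SE 0.18, adjusted p = 0.526) in mutant p53 and -0.17 (SE 0.18, adjusted p = 0.794) in p53-null thymi. Timd4, which encodes a receptor for phosphatidylserine on dying cells, differed by 0.07 (SE 0.21, adjusted p = 0.92) in mutant p53 and 0.22 (SE 0.21, adjusted p = 0.766) in p53-null thymi. Slc40a1, the iron exporter gene, differed by -0.14 (SE 0.22, adjusted p = 0.823) in mutant p53 and -0.16 (SE 0.22, adjusted p = 0.854) in p53-null thymi. All p-values are from limma with Benjamini-Hochberg adjustment, and Spic and Timd4 were chosen after their values were seen.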
